A study of Mus musculus with 36 samples.

Results

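Mouse microglia were treated with TNF and the TAK1 inhibitor 5z-7, without or with the RIPK1 kinase inhibitor Nec-1s, and RNA was measured by sequencing. The comparison set the 4 libraries with the inhibitor (T/5z/N) against the 4 without it (T/5z), matched by replicate number, so it used 8 of the 36 libraries in the series and 8 of the 24 in the microglial table. It addresses which part of the RNA response to T/5z differed when the kinase activity of RIPK1 was inhibited. All cells were microglia from C57BL/6 mice aged 2 to 4 days per the labels, grown in mixed glial cultures, positively selected on CD11b and exposed to their treatment for 4 h. Groups of 4 libraries that received DMSO alone (the vehicle) or Nec-1s alone (N) gave the background, and a pair of groups treated with TNF, a Smac mimetic and zVAD, without and with Nec-1s (T/S/Z and T/S/Z/N), gave a second stimulus. Brains were pooled within a culture, and the study's methods describe its replicates as cells from separate litters. The study's methods describe the inhibitors, 5z-7 included, as typically given before TNF. The cells are cultured and Nec-1s was present together with the stimulus, so the libraries show 1 time point of RNA levels and no measure of cell death.

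TNF binds its receptor TNFR1 and assembles a complex in which RIPK1 acts both as a scaffold and as a kinase. TAK1 in that complex drives NF-kB and MAP kinase signalling and holds RIPK1 in check, and when TAK1 is inhibited the kinase activity of RIPK1 can engage FADD and caspase-8 and kill the cell by apoptosis. Nec-1s blocks the kinase activity and leaves the scaffold. In microglia, the resident macrophages of the brain, the same receptor also drives chemokines and cytokines.

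Of 15385 genes in the microglial data, 10524 had a log2 value of at least 1 in at least 4 of the 24 libraries and were tested. A gene was called when its adjusted p was under 0.05 (limma with the replicate number as a block, Benjamini-Hochberg over all genes tested) and its fold change exceeded 1.5. Values are log2(FPKM + 1), where FPKM is fragments per kilobase of exon, scaled to library size. With Nec-1s added to T/5z, 754 genes (7.16%) were called, of which 278 (2.64%) were higher and 476 (4.52%) were lower. The median difference over all genes tested was 0.04. Nec-1s without a stimulus gave 0 calls (0.0%) by limma against DMSO, where 15 genes exceeded the fold with an unadjusted p under 0.05. The difference between the Nec-1s effect after T/5z and the Nec-1s effect without a stimulus, tested as an interaction over 16 libraries, passed the same threshold for 791 genes (7.52%), 317 of them with a more positive and 474 with a more negative effect after T/5z. When libraries were centred on their median the latter split was 224 and 572.

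**Figure D1:**
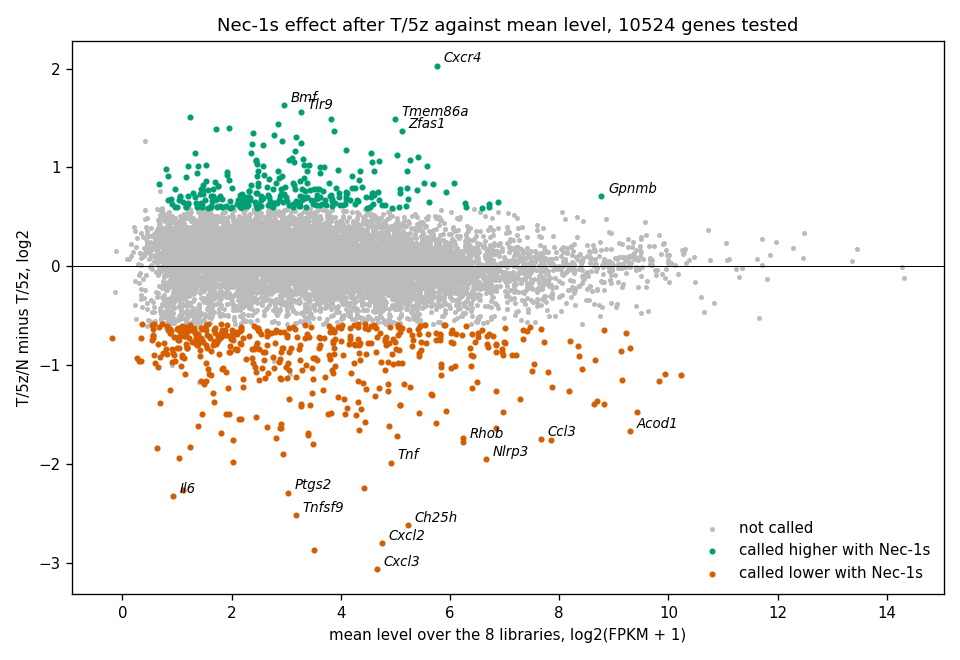
Each point is 1 of the 10524 genes tested, with its mean level over the 8 libraries in log2(FPKM + 1) on the horizontal axis and T/5z/N minus T/5z in log2 on the vertical axis. The 476 genes called lower reach down to Cxcl3 at -3.07, while the 278 called higher reach Cxcr4 at 2.03.

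The 9 genes that define microglia, among them Cx3cr1, P2ry12 and Csf1r, summed to 5471 to 6247 FPKM in T/5z and to 5738 to 6260 in T/5z/N. Markers of other cells were low but moved with the treatment. The 9 astrocyte markers summed to 12.1 to 22.2 FPKM in T/5z and to 8.15 to 8.95 in T/5z/N, against 7.17 to 9.14 in DMSO, and the 6 fibroblast and mural markers to 12.7 to 21.8 and 7.27 to 9.2, against 6.66 to 9.1 in DMSO. Of these, Aqp4, Gja1, Gfap, Slc1a3, Col3a1 and Col1a2 were called lower with Nec-1s (4 of 6 tested astrocyte markers and 2 of 4 tested fibroblast and mural markers), by 0.71 to 1.09 log2. These 6 calls were lost with 5 added before the log. Neuron markers summed to 1.13 to 3.1 FPKM in T/5z and 0.875 to 1.15 in T/5z/N, oligodendrocyte lineage markers to 26.3 to 30.4 and 27.4 to 31.5, and endothelial markers to 5.27 to 6.18 and 4.24 to 4.67. Neutrophil and monocyte markers varied within both groups, from 0.201 to 10.7 in T/5z and from -0.498 to 5.06 in T/5z/N, and the lymphocyte markers were not in the table. Mitochondrial transcripts took 0.652% to 1.15% of the summed FPKM in T/5z and 0.678% to 1.21% in T/5z/N. In such bulk libraries, fewer cells of a type and less RNA per cell cannot be told apart.

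**Figure D2:**
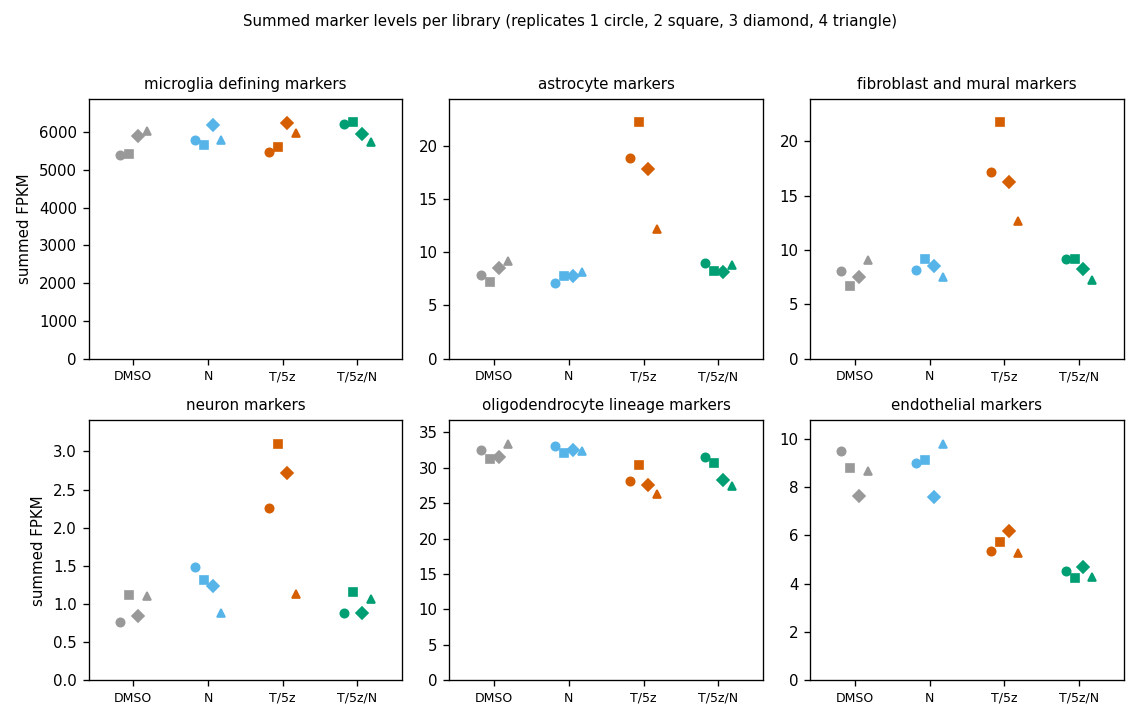
Summed FPKM of 6 marker lists (vertical axes, linear and from 0) in each of the 4 libraries of DMSO, N, T/5z and T/5z/N. Astrocyte and fibroblast markers lie above all other libraries in the 4 T/5z libraries, while microglial markers are between 5402 and 6260 FPKM in all 16.

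The genes with the largest falls were neutrophil chemokines, which recruit neutrophils through the receptor CXCR2. Their genes lie near each other on chromosome 5 (GRCm38; Cxcl3 at chr5:90786103-90788093, Cxcl1 at chr5:90891241-90893115 and Cxcl2 at chr5:90903871-90905938 in the deposited annotation), and the stretches before their starts are shown because all 3 fell together. Each covers 120 to 31 bases before the RefSeq start (GRCm38.p6, plus strand), at chr5:90785981-90786070 for Cxcl3, chr5:90891125-90891214 for Cxcl1 and chr5:90903779-90903868 for Cxcl2. Capitals mark bases in a match, on either strand, to the kappa B pattern of GGG, any 5 bases and CC, the kind of site NF-kB binds.
Cxcl3: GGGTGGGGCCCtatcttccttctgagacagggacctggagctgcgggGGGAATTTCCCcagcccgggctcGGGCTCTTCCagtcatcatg
Cxcl1: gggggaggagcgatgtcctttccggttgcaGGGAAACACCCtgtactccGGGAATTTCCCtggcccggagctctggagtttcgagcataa
Cxcl2: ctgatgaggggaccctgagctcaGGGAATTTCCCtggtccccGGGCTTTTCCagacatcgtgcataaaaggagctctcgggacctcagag
The pattern is common. Over windows of 250 bases before to 50 after a start it was in 67.3% of 10446 promoters of tested genes, in 68.0% of 465 promoters of genes called lower and in 69.6% of 276 of genes called higher. The AP-1 pattern TGANTCA was in 4.96%, 9.25% and 5.43% of the same promoters, and the Sp1 pattern GGGCGG, which can share bases with the kappa B pattern, in 63.5%, 57.6% and 65.2%. These are counts of letters on either strand, given with no test.

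Cxcl3 was at 6.39, 6.31, 6.05 and 6.02 in T/5z replicates 1 to 4 and at 3.28, 2.92, 3.05 and 3.25 in T/5z/N, against 0.53 ± 0.34 (SD, n = 4) in DMSO. The groups did not overlap, and the inhibitor left the gene well above the vehicle level. The difference was -3.07 ± 0.09 log2 (SE, adjusted p = 4.1e-07, limma). The authors' shift of replicates 1 to 3 (described with the processing) made the replicate means of each gene equal. Overlap of groups and SDs, here and below, therefore do not show the spread between litters. Cxcl2 was at 6.45, 6.38, 6.04 and 5.74 in T/5z and at 3.77, 3.52, 2.99 and 3.12 in T/5z/N. It differed by -2.80 ± 0.07 log2 (adjusted p = 4.1e-07, limma), and every T/5z/N library lay below every T/5z library. Cxcl1 was at 5.38, 5.53, 4.81 and 4.05 in T/5z and at 2.70, 2.17, 1.87 and 1.53 in T/5z/N, a difference of -2.88 ± 0.12 log2 (adjusted p = 1.77e-06, limma). Its deposited values were lowest in replicate 4 of both groups, but after the shift levels cannot be compared between replicates. The difference within each pair was of like size. All 3 of the tested neutrophil chemokines fell. For this and each further list, the share of all genes tested that fell was 4.52% and the share that rose 2.64%.

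Of 12 CC chemokines tested, 8 fell and 1 rose, with a median of -1.27 log2 (-0.78 with 5 added before the log). Ccl2, which draws monocytes, was at 5.94, 6.18, 5.38 and 4.67 in T/5z and at 3.86, 3.78, 2.83 and 2.73 in T/5z/N (-2.24 ± 0.09, adjusted p = 1.84e-06, limma). The groups did not overlap in these shifted values. Ccl3 and Ccl4 were among the most abundant chemokines and fell by 1.75 and 1.64 log2 from means of 8.54 and 7.66. Ccl22 fell by 1.49 and Ccl7 by 1.64. Ccl5 differed by -0.12 (adjusted p = 0.169, limma) at a mean of 9.99 in T/5z and 9.87 in T/5z/N. Ccl8 was the member that rose, by 0.68 (adjusted p = 0.0264, limma). Of 8 other CXC and CX3C chemokines 3 fell, namely Cx3cl1 (-0.95), the interferon-inducible Cxcl10 (-0.83) and Cxcl13 (-0.79), and 0 rose.

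**Figure D3:**
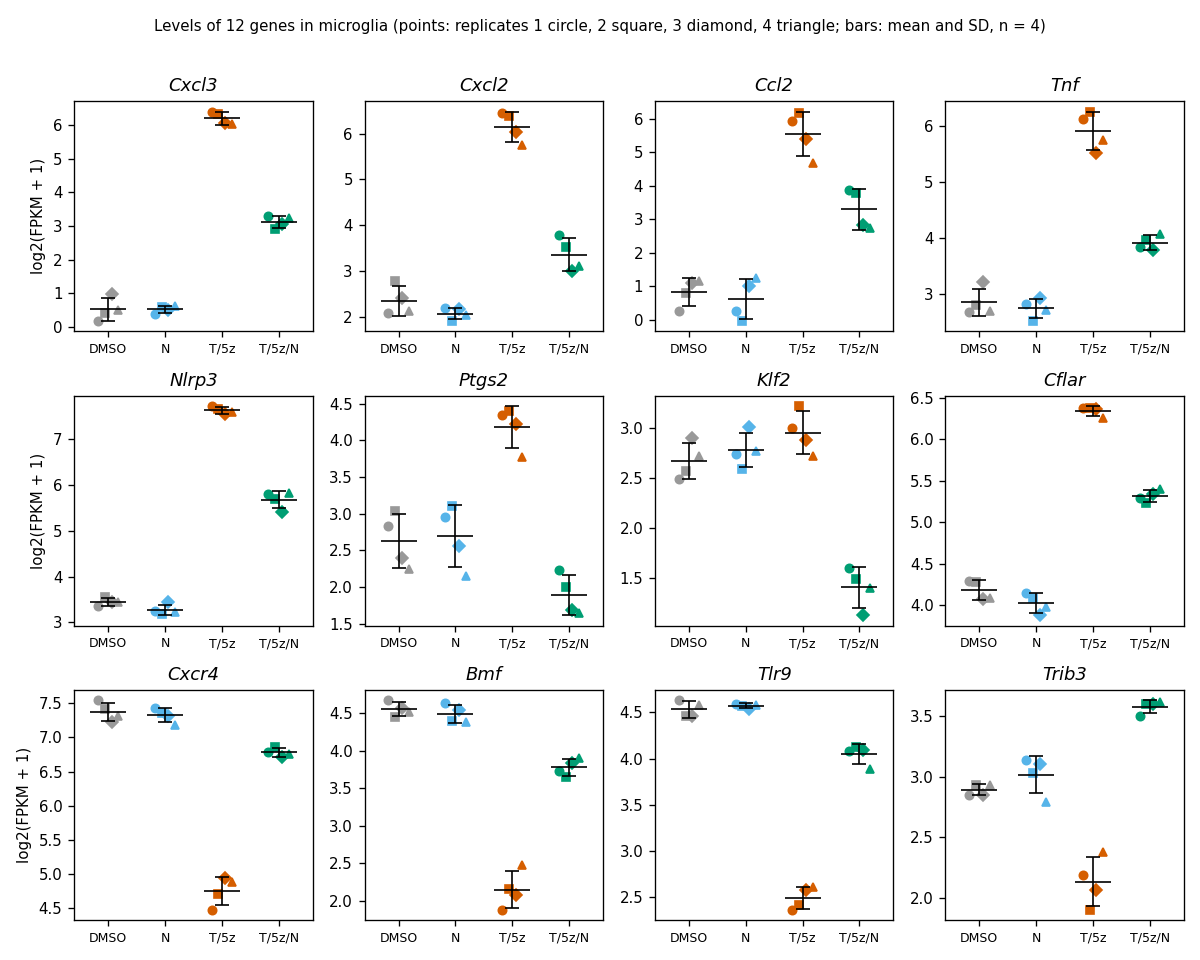
Level in log2(FPKM + 1) of 12 genes in each library of DMSO, N, T/5z and T/5z/N, with mean and SD (n = 4); vertical axes are scaled per gene and do not start at 0. Cxcl3, Cxcl2, Ccl2, Tnf, Nlrp3 and Cflar lie between the T/5z and vehicle levels in T/5z/N, Ptgs2 and Klf2 lie below DMSO, Cxcr4, Bmf and Tlr9 return most of the way up, and Trib3 lies above DMSO.

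Of 16 cytokine genes tested, 9 fell and 0 rose, with a median of -0.85 log2 (-0.55 with 5 added). Tnf (chr17:35199381-35202007), which encodes the ligand used as the stimulus, was at 6.12, 6.25, 5.51 and 5.74 in T/5z and at 3.84, 3.96, 3.79 and 4.08 in T/5z/N (-1.99 ± 0.11, adjusted p = 6.57e-06, limma). In the shifted values the 4 libraries with the inhibitor were closer together than the 4 without it, with SDs of 0.13 and 0.34. These SDs are not the spread between litters. Tnfsf9, the 4-1BB ligand, was at 4.64, 4.55, 4.22 and 4.32 in T/5z and at 2.24, 1.82, 1.79 and 1.80 in T/5z/N, a fall of 2.52. Il1b, which encodes interleukin-1 beta, fell by 1.47 from a mean of 6.66 to 5.19, near its DMSO mean of 5.14. Il1a fell by 1.83 and Il27 by 1.49.

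Some cytokines were at low levels, where the authors' shift of replicates 1 to 3 (described with the processing) produced values below 0. Il6, which encodes interleukin-6, was at 2.61, 2.52, 1.78 and 1.47 in T/5z and at -0.43, -0.51, 0.01 and 0.00 in T/5z/N (-2.33 ± 0.26, adjusted p = 0.000239, limma). Replicate 4, which was not shifted, listed it at 0 with the inhibitor. Lif, of the same cytokine family, was at 2.64, 2.87, 2.06 and 1.38 in T/5z and at -0.18, -0.39, 0.21 and 0.28 in T/5z/N. Both had their highest T/5z values in replicates 1 and 2, as had the chemokine Ccl20 with 2.70, 2.76, 1.53 and 1.07. Because of the shift, such an order is relative to the other treatments of each replicate. High values in replicates 1 and 2 were shared by the astrocyte and fibroblast marker sums given above and by more abundant genes such as Cxcl1, Cxcl2 and Ccl2. Others that fell, such as Cd40 and Tmem200b, were highest in replicate 4. The part of astrocytes and fibroblasts in these falls was not tested.

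Of 13 growth and colony-stimulating factors, 7 fell and 1 rose. Csf1, the main survival factor of microglia, fell by 1.25 from a mean of 4.29. The EGF receptor ligands Ereg (-1.84), Hbegf (-0.83) and Areg (-0.73) fell too, and Bmp2 was the member that rose, by 0.71. Csf2 and Csf3 fell by 0.96 and 0.92 from means of 0.79 and 0.73, and like Il6 they were at low levels. Both calls were lost without replicate 2, and with 5 added those of Ereg, Csf2 and Csf3 were lost.

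NF-kB is restrained by genes that it induces itself, and 8 of 18 genes of its subunits and feedback fell while 0 rose, with a median of -0.51. Tnfaip3, which encodes the ubiquitin-editing enzyme A20, was at 6.56, 6.43, 6.08 and 6.10 in T/5z and at 4.98, 5.02, 4.94 and 5.07 in T/5z/N (-1.29 ± 0.09, adjusted p = 1.49e-05, limma). Its T/5z/N level stayed above the DMSO mean of 2.88. Tnfaip2 fell by 1.16, the inhibitor of kappa B family member Nfkbiz by 1.14 and the RNase Zc3h12a by 1.04. Nfkbiz and Zc3h12a varied within T/5z, where Nfkbiz was at 4.11, 4.01, 2.93 and 2.82 and Zc3h12a at 2.63, 2.57, 1.72 and 1.45. Nfkbia, which encodes I kappa B alpha, differed by -0.58 (adjusted p = 2.27e-05, limma), just inside the 1.5-fold limit and so not called. The subunit genes Rela, Rel, Relb, Nfkb1 and Nfkb2 were not called.

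Immediate early factors and the inhibitors of ERK signalling behaved alike in direction. Of 23 AP-1, EGR and related factors 10 fell and 0 rose, and of 12 genes of ERK and MAP kinase feedback 10 fell and 0 rose, with a median of -0.94 (-0.54 with 5 added). Klf2, a zinc finger factor that quiets myeloid activation, was at 3.00, 3.22, 2.88 and 2.72 in T/5z and at 1.60, 1.49, 1.13 and 1.41 in T/5z/N (-1.55 ± 0.09, adjusted p = 8.33e-06, limma). All 4 values with the inhibitor were below the lowest DMSO value, 2.49. Ier3 and Maff fell by 1.5 each and Egr2 by 1.23. Egr1 was at 3.25, 3.47, 2.55 and 2.10 in T/5z and at 2.46, 2.08, 2.29 and 1.44 in T/5z/N, so its groups overlapped although it passed the paired test (-0.77 ± 0.15, adjusted p = 0.0038, limma), and its call was lost without replicate 2. Fos and Atf3 differed by -0.04 and 0.37 and were not called. Among the feedback genes, the phosphatases Dusp2 (-1.45) and Dusp16 (-1.34) and the ERK pathway inhibitor Spred2 (-1.40) fell most, followed by the EGF receptor inhibitor Errfi1 (-1.13). Dusp6, a phosphatase of ERK itself, had a T/5z mean of 2.48 under its DMSO mean of 3.88 and was at 1.64 with the inhibitor.

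Receptors went both ways. Of 24 chemotactic, purinergic and adenosine receptors 8 fell and 3 rose. Cxcr4 (chr1:128588199-128592290), the receptor of CXCL12, had the largest rise of all named genes. It was at 4.48, 4.71, 4.94 and 4.88 in T/5z and at 6.79, 6.86, 6.71 and 6.76 in T/5z/N, against 7.38 ± 0.13 (SD, n = 4) in DMSO. The difference was 2.03 ± 0.08 (SE, adjusted p = 1.62e-06, limma), or 4.08-fold. P2rx7, an ATP-gated channel, rose by 0.86 and the fractalkine receptor Cx3cr1 by 0.63, a call that was lost after centring on the median. Gpr84, a receptor for medium-chain fatty acids, fell by 1.76 from a mean of 8.73, the purinergic receptor P2ry13 by 1.5, the formyl peptide receptors Fpr2 and Fpr1 by 1.41 and 1.22, and the adenosine receptor Adora2a by 1.24. C5ar1, the complement C5a receptor, fell by 0.80.

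Of 22 Toll-like, NOD-like and C-type lectin receptor genes and partners, 5 fell and 3 rose. Nlrp3 (chr11:59541568-59566956), the inflammasome sensor, was at 7.73, 7.65, 7.56 and 7.59 in T/5z and at 5.80, 5.69, 5.42 and 5.82 in T/5z/N (-1.95 ± 0.06, adjusted p = 5.37e-07, limma), against a DMSO mean of 3.45. Clec5a, Nod2, Clec4e and Tlr1 fell by 1.17, 1.14, 1.09 and 0.71. Tlr9, the receptor of unmethylated DNA, was at 2.37, 2.41, 2.58 and 2.61 in T/5z and at 4.08, 4.13, 4.10 and 3.89 in T/5z/N (1.56 ± 0.08, adjusted p = 4.28e-06, limma). Its T/5z/N mean of 4.05 was near its DMSO mean of 4.53, and the groups did not overlap. Tlr8 and Tlr4, the receptors of single-stranded RNA and of lipopolysaccharide, rose by 0.79 and 0.69. Of 12 costimulatory and adhesion molecules 6 fell and 0 rose, among them Vcam1 (-1.62), Cd40 (-1.47), Cd83 (-0.90) and Cd69 (-0.85).

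Of 15 genes that make or sense lipid mediators 5 fell and 0 rose. Ch25h, which makes 25-hydroxycholesterol, was at 6.54 ± 0.24 (SD, n = 4) in T/5z and at 3.92 ± 0.32 in T/5z/N (-2.62 ± 0.08, adjusted p = 5.84e-07, limma). Ptgs2, the inducible cyclooxygenase, was at 4.34, 4.40, 4.22 and 3.77 in T/5z and at 2.23, 1.99, 1.69 and 1.64 in T/5z/N, against 2.63 ± 0.37 (SD, n = 4) in DMSO. Ptges, the prostaglandin E synthase that works with it, fell by 1.26 from a mean of 8.80. The constitutive cyclooxygenase gene Ptgs1 differed by 0.06 and was not called. Of 8 inflammatory metabolic enzymes and transporters 5 fell and 0 rose. Acod1, which makes itaconate, was at 10.25, 10.22, 9.93 and 10.15 in T/5z and at 8.68, 8.47, 8.13 and 8.59 in T/5z/N, a fall of 1.67 (adjusted p = 7.4e-07, limma) in one of the most abundant responding genes. Slc7a2 and Slc7a11, carriers of cationic amino acids and of cystine, fell by 1.5 and 1.19, and Gch1, the enzyme that starts tetrahydrobiopterin synthesis, by 1.05. Of 23 glycolysis and HIF-1 genes 5 fell and 0 rose, led by Adm (adrenomedullin, -1.69) and the glucose carrier Slc2a1 (-1.30), while Gapdh, Ldha and Pkm differed by -0.23, -0.22 and 0.07 and were not called. Of 24 cholesterol synthesis genes Idi1 fell (-0.75) and 0 rose, a share near the 4.52% of all genes tested that fell.

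Of 33 genes of the RIPK1 complexes and their effectors 2 fell and 1 rose, where 4.52% of all genes tested fell and 2.64% rose. Their median was -0.10, beside 0.04 over all genes. Ripk1 was at 4.85, 4.81, 4.83 and 4.87 in T/5z and at 4.94, 4.98, 5.01 and 4.92 in T/5z/N, a difference of 0.12 ± 0.04 (adjusted p = 0.0456, limma) that was under the fold limit. The inhibitor acts on the protein, so this level does not check its action. Casp8, Mlkl and Ripk3 differed by 0.02, 0.18 and 0.34 and were not called. Cflar, whose product cFLIP restrains caspase-8, was at 6.37, 6.37, 6.36 and 6.25 in T/5z and at 5.29, 5.23, 5.34 and 5.40 in T/5z/N (-1.02 ± 0.05, adjusted p = 4.54e-06, limma). Birc2, which encodes the ubiquitin ligase cIAP1, fell by 0.63, a call that was lost without replicate 3, while its relative Birc3 differed by -0.34 and was not called.

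In the BCL-2 family 4 of 16 genes fell and 2 rose, beside 4.52% and 2.64% of all genes tested. The genes that fell encode proteins that protect cells, and those that rose encode proteins that promote death. Bcl2a1d, Bcl2a1a and Bcl2a1b fell by 1.40, 1.23 and 1.10. They are near-identical copies whose reads the counting could have split, so their separate values are uncertain. Bcl2l1, which encodes BCL-XL, fell by 0.79. Bmf (chr2:118528757-118549687), a BH3-only gene, was at 1.88, 2.16, 2.08 and 2.47 in T/5z and at 3.73, 3.65, 3.83 and 3.90 in T/5z/N (1.63 ± 0.08, adjusted p = 3.67e-06, limma). Bbc3, which encodes the BH3-only protein PUMA, rose by 1.01 and its T/5z/N mean of 4.19 was near its DMSO mean of 4.02. Bax, Bak1 and Bid differed by -0.20, -0.02 and 0.07 and were not called.

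Of 20 genes of the integrated stress response and of endoplasmic reticulum stress 4 rose and 0 fell, beside 2.64% and 4.52% of all genes tested. Trib3, a pseudokinase gene induced by ATF4 and CHOP, was at 2.19, 1.90, 2.07 and 2.38 in T/5z and at 3.50, 3.60, 3.60 and 3.61 in T/5z/N (1.44 ± 0.08, adjusted p = 7.14e-06, limma). All 4 values with the inhibitor exceeded the highest DMSO value, 2.93. Ddit3, which encodes CHOP, rose by 0.84, Sesn2 by 0.71 and Chac1 by 0.62. The call of Chac1 was lost without replicate 3, after centring on the median and with 5 added before the log, and that of Sesn2 with 5 added. Atf4 and Asns differed by 0.39 and 0.52 and were not called, as were the endoplasmic reticulum chaperones Hspa5 (-0.31) and Hyou1 (-0.02). Of 15 genes repressed by growth factor signalling through FOXO 3 rose (Arrdc3 1.36, Klhl24 1.25 and Sesn1 0.62) and Cited2 fell (-0.99). The call of Sesn1 was lost without replicate 1.

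Of 20 homeostatic microglial genes 2 rose and 2 fell, where 7.16% of all genes tested were called. Cx3cr1, whose call was lost after centring, was at 6.26, 6.44, 6.54 and 6.34 in T/5z and at 6.93, 7.03, 7.07 and 7.07 in T/5z/N. Tmem119, a marker used to tell microglia from other macrophages, went the other way. It was at 4.69, 4.88, 4.68 and 5.35 in T/5z and at 3.97, 3.97, 3.82 and 4.28 in T/5z/N, above its DMSO mean of 3.32 in every library. P2ry12 and Csf1r differed by 0.10 and 0.11 and were not called. Of 20 disease-associated microglia genes Gpnmb rose (0.71) and 0 fell. Of 32 interferon-stimulated genes 4 fell and 0 rose, led by the guanylate-binding protein gene Gbp5 (-1.59) and the transcription factor Irf1 (-0.90), while Mx1 differed by 0.17.

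Among regulators of G-protein signalling, Rgs16 and Rgs1 fell by 1.74 and 1.34 and Rgs2 rose by 0.84, out of 8 tested. Of the remaining lists, to be set beside the 4.52% of all genes tested that fell and the 2.64% that rose, p53 targets had 2 of 11 higher (Trp53inp1 1.03 and Bbc3) and 2 lower (Cdkn1a -1.16 and Plk2 -0.60), NRF2 targets 2 of 15 lower (Slc7a11 and Txnrd1, -0.65), heat shock genes 1 of 11 lower (Hspb1, -0.62), and cell cycle genes 1 of 18 higher (E2f1, 0.62) and 1 lower (Mki67, -0.75). The calls of Plk2, Hspb1 and E2f1 were each lost without replicate 2. The oligodendrocyte list had Olig1 lower (-0.79) of 3 tested. Zinc finger genes had 3 of 256 higher and 1 lower, under the background shares. Of 120 genes found by the Rpl and Rps symbols 1 was lower, and that gene, Rps6ka5, encodes a kinase and not a ribosomal protein. Of 11 mitochondrially encoded genes 0 were called. A list of 9 genes that the study names fell in all its members, among them Mir155hg (-1.16), the host gene of the microRNA miR-155, and the transcription factor Bhlhe40 (-1.05). It leaves out others that the study names, such as Il1b and Ch25h. The study named several of them from these libraries, such as Cxcl1, Ccl3, Mir155hg and Bhlhe40, and those are no independent evidence of the direction. Apart from these libraries, it reports kinase-dependent gene expression by qPCR and secretion by immunoassay of CXCL1 and CXCL2 in microglia after T/5z.

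**Figure D4:**
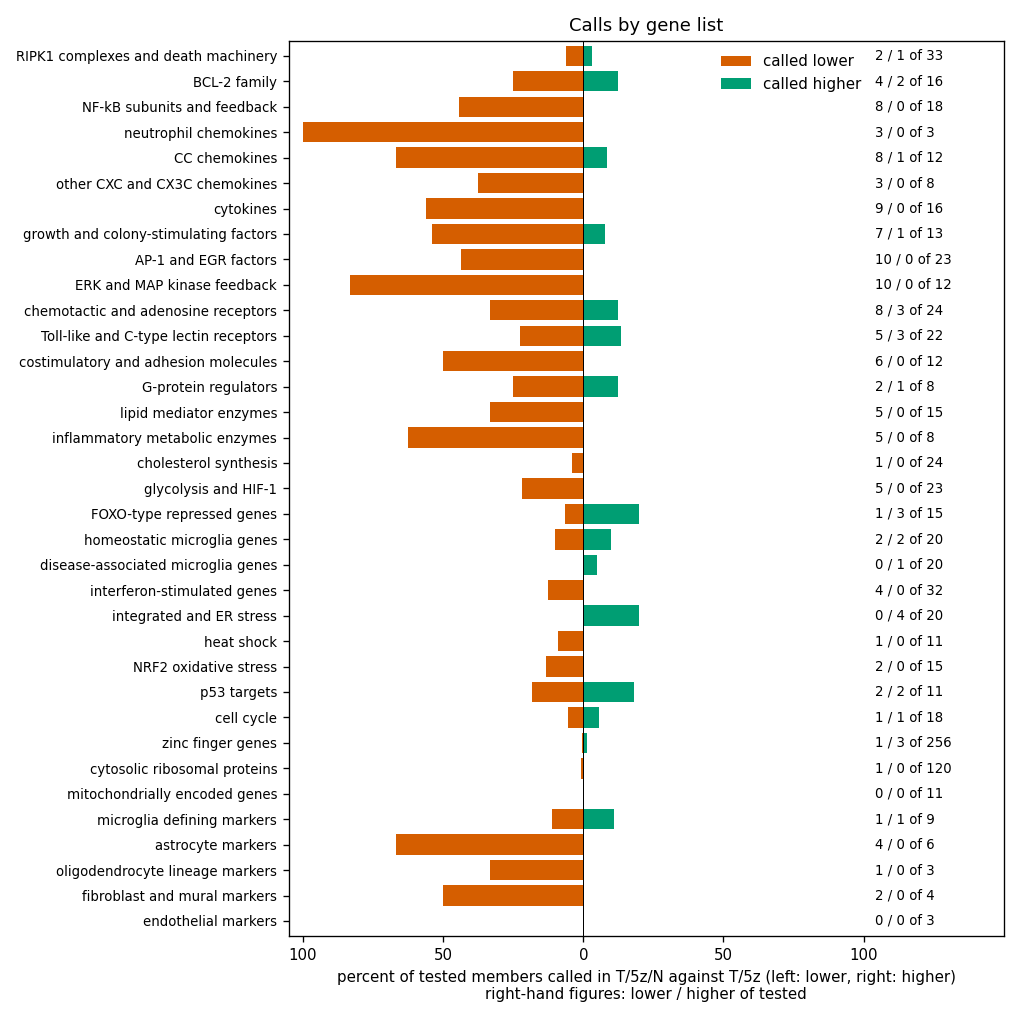
Percent of tested members of each gene list with at least 3 tested, other than the genes the study names, called lower (left) or higher (right) in T/5z/N against T/5z, with the counts printed as lower / higher of tested. Of the lists drawn, neutrophil chemokines and ERK feedback reach the largest shares called lower, against 4.52% of all genes, and the integrated and endoplasmic reticulum stress list has members called higher and none lower.

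The 12 largest falls and 12 largest rises were taken from the called genes of this comparison, so their values are a description. Low genes, pseudogenes and unnamed gene models were left out first. Among the low genes, Il6 (-2.33) and Lif (-2.26) fell by more than some of those listed. The groups did not overlap in any of the 24, which was so for 96.42% of all called genes. The shift had removed replicate means beforehand, so this does not show separation across litters. Of all genes tested, T/5z/N lay wholly below T/5z in 19.98% and wholly above it in 27.55%. Beside those described, the falls included Ptx3, a pentraxin (-1.91), Rhob, a small GTPase (-1.78), and Tmem200b (-1.76). The rises included Tmem140 and Tmem86a (1.49 each), the non-coding RNA gene Zfas1 (1.37, uncertain because Znfx1 lies on the opposite strand and no use of strand is stated for these libraries), the inhibitory receptor Cd200r1 (1.34), N4bp2l1 (1.33), the mitochondrial phosphoenolpyruvate carboxykinase Pck2 (1.31) and Arhgap19 (1.26). All 24 also passed the interaction with the unstimulated pair (adjusted p up to 0.0117, limma), which uses the same T/5z and T/5z/N libraries, and without a stimulus Nec-1s moved none of them by more than 0.28 log2.

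The size of the T/5z response was compared without and with the inhibitor in libraries that the comparisons do not share. T/5z against DMSO called 2563 genes (24.4%), 1167 higher and 1396 lower, and T/5z/N against N called 1310 genes (12.4%). The balance of the former turned to 1360 higher and 1177 lower after centring on the median, and to 769 and 716 with 5 added before the log. Over the 1167 raised genes, the response in the presence of Nec-1s was a median of 59.0% of the response without it (quartiles 38.3% and 76.6%), and over the 1396 lowered genes 57.7% (quartiles 44.6% and 72.5%). Because genes were chosen for a large response without the inhibitor, these shares lean low. With Nec-1s on both sides 589 of the raised and 600 of the lowered genes were still called in the same direction. The shares differed by gene. For Il6 and Lif the response with Nec-1s was 0.23 ± 0.14 and 0.05 ± 0.12 log2 (adjusted p = 0.219 and 0.742, limma), which did not pass the test, at values around 0. Cxcl2 kept 33.7% of its response, Tnf 38.4%, Cxcl3 45.9% and Nlrp3 57.5%, whereas Cd40 kept 71.8% and Bcl2a1a 77.2%. Among lowered genes Cxcr4 kept 20.7%, Arhgap19 56.3% and Rgs2 75.4%.

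**Figure D5:**
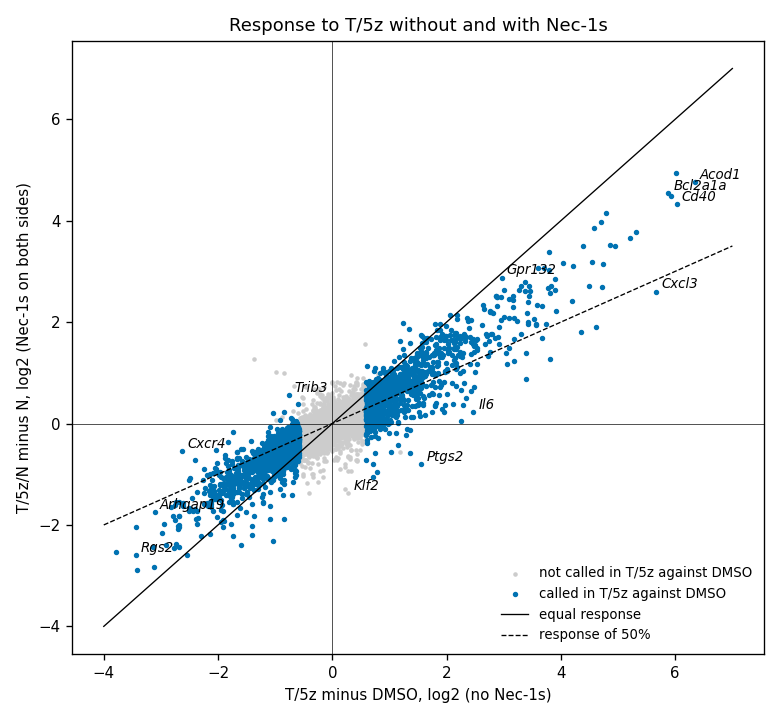
T/5z minus DMSO in log2 (horizontal) against T/5z/N minus N in log2 (vertical) for every gene tested; blue points were called in T/5z against DMSO. Most blue points lie between the solid line of equal response and the horizontal axis, around the dashed line of a response of 50%.

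At one end of this range were genes that T/5z changed and that differed little with Nec-1s. Of the genes called in T/5z against DMSO, 297 differed by under 0.2 log2 in either direction with the inhibitor (after leaving out pseudogenes, unnamed gene models and low genes). Gpr132, a lysolipid and proton receptor, had the largest T/5z response of them. It was at 3.77, 3.84, 3.89 and 4.05 in T/5z and at 3.91, 3.91, 3.74 and 3.80 in T/5z/N, against a DMSO mean of 0.92. Herpud1, Etv3, Casp4 and Rin2 were also named. Casp4 differed by -0.15 ± 0.04 (adjusted p = 0.0193, limma) without overlap of the groups, so a place in this class is a matter of size and not of no difference.

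At the other end were 22 genes, after the same omissions, that Nec-1s carried to the far side of the vehicle level. Of these, 18 were lower and 4 higher, each with a called difference of T/5z/N from DMSO. Ptgs2, Rhob, Klf2 and Trib3 were among them. A called response to T/5z was not required, and that of Klf2 was not called (0.28, adjusted p = 0.0887, limma). Trib3 in T/5z/N was called against DMSO (0.69) but not against N (0.56). Plaur, the urokinase receptor gene, had means of 3.48 in DMSO, 4.26 in T/5z and 2.55 in T/5z/N. Rhob was at 7.21, 7.18, 6.93 and 7.18 in T/5z and at 5.41, 5.30, 5.24 and 5.44 in T/5z/N, against 6.42 in DMSO and 6.40 in N. Of the genes called with Nec-1s, again after these omissions, 12 had been moved by T/5z alone by under 0.2 log2. Of these, 6 are also among the 22. Bcl2l1 was at 4.66, 4.67, 4.66 and 4.62 in T/5z, near its DMSO mean of 4.60, and at 3.98, 4.10, 3.82 and 3.54 in T/5z/N. Tbc1d8 was at 3.22, 3.27, 3.30 and 3.34 in T/5z and at 4.05, 3.99, 4.06 and 4.10 in T/5z/N. The groups were apart in both genes, while N and DMSO alone had like levels, with N means of 4.56 and 3.30. The monocarboxylate carrier Slc16a6 (1.08), the inhibitor of differentiation Id1 (-1.02), C5ar1 and Egr1 were the others named.

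The effect of Nec-1s was set against its effect after T/S/Z, the necroptotic stimulus, by an interaction over 16 libraries, and 681 genes (6.47%) differed. In 397 the effect was more positive after T/5z and in 284 more negative. Mitochondrially encoded genes, a sign of RNA quality, moved with this contrast. After T/S/Z 10 of 11 were called lower with Nec-1s (median -0.94 log2) and after T/5z 0 were called (median -0.09), and 5 passed the interaction (median 0.82). Their part in the results that follow was not tested. Ccl4, Ccl3, Tnf and Rgs1 fell less after T/5z than after T/S/Z. Ccl4 differed by -1.64 and -5.56 under the respective stimuli, Ccl3 by -1.75 and -5.34, Tnf by -1.99 and -4.93, and Rgs1 by -1.34 and -4.26. Egr2 showed the same pattern with -1.23 and -5.14. Without the inhibitor these genes were at lower levels after T/5z than after T/S/Z, with means of 7.66 and 11.50 for Ccl4, 8.54 and 12.05 for Ccl3, 5.90 and 9.41 for Tnf, 4.74 and 7.31 for Rgs1 and 2.83 and 7.10 for Egr2. With Nec-1s the means were closer, for example 6.02 and 5.95 for Ccl4 and 6.79 and 6.71 for Ccl3. Other genes fell more after T/5z. Gbp5 differed by -1.59 and -0.31, Cd40 by -1.47 and -0.43, Dusp2 by -1.45 and 0.20, Nod2 by -1.14 and 0.06, and Birc2 by -0.63 and 0.65. Without the inhibitor all 5 were at higher levels after T/5z than after T/S/Z, for example with means of 6.54 and 3.11 for Gbp5 and of 4.96 and 3.47 for Birc2. Of the genes that rose, Cxcr4 differed by 2.03 under T/5z and 0.26 under T/S/Z and Arhgap19 by 1.26 and -0.56, while Bmf differed by 1.63 and 2.58. All of these passed the interaction test (adjusted p up to 0.00206, limma). Cflar (-1.02 and -1.01), Tlr9 (1.56 and 1.54) and Tnfsf9 (-2.52 and -2.61) did not pass it, with adjusted p of 0.94, 0.914 and 0.776 (limma).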

How the data were processed

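Alignment, counting and scaling were done by the authors with OmicSoft Array Studio (version 10.1.1.3), and they deposited log2(FPKM + 1) values scaled to a common 75th percentile. The microglial libraries were selected for polyadenylated RNA, and a strand-specific kit is not stated. In replicates 1 to 3 the deposited log2 values were shifted per gene so that the mean over the 6 treatments equalled that of replicate 4 (largest difference 6.67e-05), a step the methods do not describe. It left 0 to 785 values below 0 in the libraries used in T/5z and T/5z/N, and it does not alter a difference within a replicate. It removes differences between replicates that the treatments share, so overlap of groups and SDs do not show the spread between litters. Read totals are not in the table, so depth is unknown. Low values of replicate 4 could not be turned into whole reads, since 71.2% and 71.9% of them in T/5z and T/5z/N lay within 0.15 of a whole step.

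Groups were compared with limma 3.58.1 in R 4.3.3 (lmFit, eBayes with trend, 2-sided) on the libraries of the compared groups, with the replicate number as a block, following the study's paired comparison. The pairing comes from the study's statement of separate litters. Because the shift removed replicate means, same-numbered deviations of T/5z and T/5z/N correlated by only 0.03, -0.05, -0.18 and 0.09 across genes. The filter was a log2 value of at least 1 in at least 4 libraries. A log2(FPKM + 1) difference understates the change of low genes. No 2 libraries held identical values.

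Named genes were the 12 largest called falls and rises (mean log2 over 2, without pseudogenes, Gm models and Rik clones), up to 4 called genes per list, Ripk1, Ripk3, Mlkl, Casp8, Tnf, 9 genes the study names, and up to 6 per class of response. Genes given beside them, chosen after their values were seen, are list members or uncalled relatives. One class used T/5z/N against DMSO, fitted the same way. Members and lists were chosen with earlier results of these data known. Coordinates are GRCm38. Gene starts equalled those of GENCODE M21 for 84.6% of genes. Some genes are not reported here. Of the 126 named genes 50 carry the file's undefined mark "confounded", among them Ch25h, Tnfsf9, Ccl2, Gpr84, Ripk1 and Mlkl. Promoters were matched by symbol for 8183 of 10520 tested symbols in the RefSeq table (GRCm38.p6). Alternatives added 5 or 0.5 before the log, changed the filter, scaling, variance, fold limit or libraries, or left out each replicate. The astrocyte table was not used here.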

Additional observations from a re-analysis of the deposited data

Results flagged for a closer look

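The Nec-1s effect differed between the stimuli, T/5z and T/S/Z, for 681 genes, and between T/5z and no stimulus for 791 genes (limma interactions). The 34 genes of the largest changes and those fixed by name were checked one by one, and 14 had unequal effects under the stimuli. The effect after T/5z less that after T/S/Z was 3.92 log2 for Ccl4, 3.59 for Ccl3, 2.94 for Tnf, 2.92 for Rgs1, 1.78 for Cxcl2 and 1.56 for Ptgs2, all of which fell less after T/5z. It was -1.16 for Cxcl3 and -1.34 for Tmem200b, which fell more. It was 1.82 for Arhgap19, 1.77 for Cxcr4, 0.95 for Tmem86a, 0.86 for Cd200r1 and 0.73 for Trib3, which had the more positive effect after T/5z, and -0.96 for Bmf, which rose less.

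In 3 cases a value stood apart from the other 3 of its group by Dixon's criterion, in 68 groups checked. They were Tnfsf9 in replicate 1 of T/5z/N (2.24), Rhob in replicate 3 of T/5z (6.93) and Trib3 in replicate 1 of T/5z/N (3.50). Chance marks about 1 in 20 groups, and the 3 are of 68. Each value lay on the same side of the other treatment as the rest of its group.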

How the results depend on the processing

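Counts of called genes moved by over 1.5 times under stricter settings. With 5 added before the log, T/5z/N against T/5z called 314 genes in place of 754, T/5z against DMSO 1485 of 2563, T/5z/N against N 782 of 1310, the interaction with no stimulus 326 of 791, that with T/S/Z 396 of 681, and T/S/Z/N against T/S/Z 514 of 1270. When the filter asked for a mean log2 of 3 the same counts were 385, 1463, 819, 393, 426 and 628, where fewer genes were tested. A fold limit of 2 left 182 genes in T/5z/N against T/5z. The cause was not tested for the added 5, beyond its compressing of low genes by construction. The share of T/5z/N calls that were higher was 36.9%, and 25.5% with 5 added (80 higher and 234 lower), 27.3% after centring on the median (212 and 566) and 23.6% at a fold limit of 2 (43 and 139). For the interaction with no stimulus the share was 40.1%, and 27.0% with 5 added and 28.1% after centring. Leaving out a replicate gave 714 to 848 genes for T/5z/N against T/5z, 2514 to 2634 for T/5z against DMSO, 1229 to 1369 for T/5z/N against N, 681 to 872 and 579 to 724 for the interactions, and 1216 to 1375 for T/S/Z/N against T/S/Z. N against DMSO had 0 to 1, the 1 being without replicate 4. Without the replicate block T/5z/N against T/5z called 748 genes, all shared with the 754, and the pairing changed no call among the 126 named genes. The authors' shift had already made the replicate means of each gene equal, so this likeness was built in, and the fit without the block has too many residual degrees of freedom.

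None of the 117 called named genes changed direction under any alternative. Signs changed for uncalled genes near 0: Casp8 to -0.029 after centring and Etv3 to 0.051 after quantile normalization. Over the replicates left out, Gpr132 ranged from -0.113 to 0.016. Calls of Plk2, Egln3, Csf3, Sesn1 and Zfp874a were lost without replicate 1, of Plk2, Egr1, Hspb1, Csf3, Csf2 and E2f1 without replicate 2, of Birc2 and Chac1 without replicate 3, and of Zfp513 and Hspb1 without replicate 4. Centring ended the calls of Sesn1, Chac1, E2f1 and Cx3cr1 and quantile normalization those of Plk2, Txnrd1 and E2f1. With 5 added 31 named genes were no longer called, among them Aqp4, Gfap, Csf2, Csf3, Ereg, Birc2, Chac1 and Sesn2. With an ordinary per-gene variance 17 were no longer called, among them Lif, Ccl20, Nfkbiz and Zc3h12a, and with all 24 libraries in the fit Egr1 was not. Of 38 list medians 1 changed sign, that of the ribosomal symbols after centring (0.03 to -0.02), and 19 moved by over 1.5 times with 5 added, as did the values of 42 of the 117 called named genes. Depth is unknown, so no limit for undetected genes can be given.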
